A study of Mus musculus with 6 samples.

Results

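The receptor and adaptor machinery of osteoclast precursors was described by 10 genes in EGFP+ cells sorted from mouse calvaria. They were chosen by gene symbol: *Tnfrsf11a* (RANK) and *Csf1r* (the M-CSF receptor), *Traf6*, the immunoreceptor tyrosine-based activation motif (ITAM) adaptors *Tyrobp* (DAP12) and *Fcer1g* (FcRγ), the receptors *Trem2*, *Oscar* and *Pirb*, and the signaling enzymes *Syk* and *Plcg2*. All 10 were found among the 24346 gene symbols of each table. All 10 also passed the filter on low values, an FPKM of 1 or more in any mouse, as did 11301 genes in all. *Oscar* passed through a single vehicle-treated mouse.

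The mice carried the CX3CR1-EGFP knock-in reporter, in which green fluorescence marks cells of the monocyte lineage, and all 6 received LPS (20 mg/kg) under the calvarial periosteum. For 5 days, 3 mice were given the JAK1 inhibitor ABT-317 (JAKi, 60 mg/kg, 2 oral doses per day) and 3 were given vehicle. Bone marrow was released from the calvaria with a mortar, EGFP+ cells were sorted, and their RNA was sequenced, 1 library per mouse. The age of these mice is not given in the sources used here, and no mouse without LPS was analysed here, so both groups were inflamed. The study states 3 mice per group, while the sample titles give only numbers, which name a library within its group and pair no mice. Defining monocyte genes were abundant, with *Ly6c2* between 2751 and 4617 FPKM and *Lyz2* at 23900 FPKM or more in every mouse, and genes of neutrophil precursors and of basophils were also present, with *Mpo* between 1649.6 and 6105.5 FPKM and *Mcpt8* between 463 and 1130.2 FPKM. *Calcr*, a receptor of mature osteoclasts, was listed at 0 in every mouse, as were *Ms4a1* and *Pax5* of B cells and *Sp7* of osteoblasts. Other genes of the same marker lists were detected in every mouse. Of the osteoclast list, *Acp5* was 90.7 to 383 FPKM and *Ctsk* 7.55 to 167.5 FPKM. *Cd79b* of the B cell list was 26.7 to 35.4 FPKM, and *Runx2* of the stromal and bone list was 2.98 to 6.56 FPKM.

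RANK and the M-CSF receptor are the receptors through which RANKL and M-CSF drive a monocyte toward the osteoclast fate. RANK signals through TRAF6 to NF-κB and MAP kinases. A second, costimulatory input comes from receptors that lack signaling motifs of their own and associate with DAP12 or FcRγ. Once the ITAM tyrosines of these adaptors are phosphorylated by Src family kinases, SYK docks on them and activates PLCγ2, which raises intracellular calcium and activates NFATc1. PIR-B carries inhibitory motifs (ITIMs) and counters this input through phosphatases.

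Of the 10 genes, *Pirb* alone was lower with JAKi at an unadjusted p under 0.05, and none passed the adjusted threshold. *Pirb* was 293 ± 80.1 FPKM (SD, n = 3) in vehicle-treated mice, against 190.95 ± 20.2 FPKM (SD, n = 3) in JAKi-treated mice, without overlap. *Tnfrsf11a* and *Trem2* were high in 1 vehicle-treated mouse, and the groups overlapped among the other 5 mice. *Oscar* was barely detected. For *Csf1r*, *Traf6*, *Tyrobp*, *Fcer1g*, *Syk* and *Plcg2*, the 95% intervals of the log2 difference all lay between -0.32 and 0.40.

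In limma over all tested genes, 0 of the 10 genes had an adjusted p under 0.05, a threshold passed by 0.133% of the tested genes (15 genes; 0.0973% lower and 0.0354% higher with JAKi). At an unadjusted p under 0.05 there was 1 of 10, *Pirb*, against 16.0% of all tested genes. For 2 of 10 the groups were separate, *Pirb* (lower, as for 12.1% of all tested genes) and *Syk* (higher, as for 9.92%), against 22.0% in either direction. The median log2 difference (JAKi minus vehicle, on log2(FPKM + 1)) was -0.02 over the 10 genes and -0.0035 over all tested genes. These shares were near or below the background.

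**Figure D1:**
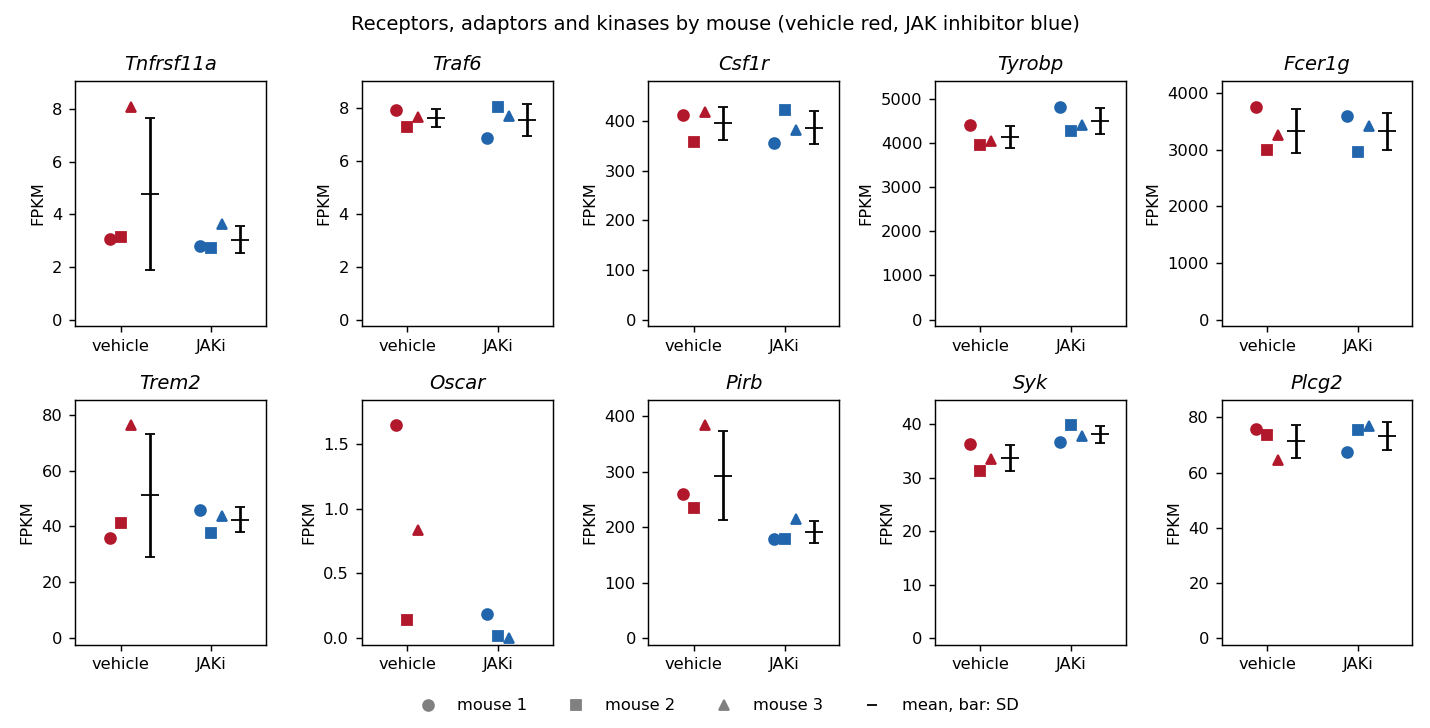
FPKM of the 10 genes in each mouse, with vehicle in red and JAKi in blue, a symbol for each mouse number, and the mean with its SD in black (left out for *Oscar*, which was listed at 0 in a mouse). Vehicle-treated mouse 3 lies above the other 5 mice for *Tnfrsf11a* (8.09), *Trem2* (76.3) and *Pirb* (384), while the 6 mice lie together for *Traf6*, *Csf1r*, *Fcer1g* and *Plcg2*.

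The levels spanned several orders of magnitude. FPKM is scaled by transcript length, so levels can be set side by side between genes. *Tyrobp* had a mean of 4311 FPKM over the 6 mice and ranked between 8 and 12 of all gene symbols in every library. *Fcer1g* followed with a mean of 3327 FPKM and ranks between 11 and 15. *Csf1r* (mean 391 FPKM), *Pirb* (242), *Plcg2* (72.2), *Trem2* (46.8), *Syk* (35.9), *Traf6* (7.57), *Tnfrsf11a* (3.90) and *Oscar* (0.469) came next. Thus both ITAM adaptors were among the most abundant transcripts of these cells, and RANK ranked between 6601 and 8969, in libraries with 13727 to 13957 genes above 0.

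Not every step in this order held within a mouse. *Trem2* and *Syk* were neighbors whose ranges overlapped, and *Trem2* was the higher of them in 4 of 6 mice. *Plcg2* was above *Trem2* in 5 of 6 mice, and *Traf6* above *Tnfrsf11a* in 5 of 6. In both of the latter cases the exception was vehicle-treated mouse 3. All other neighbors kept their order in 6 of 6 mice.

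*Tnfrsf11a* encodes RANK, the receptor for RANKL. Its level was 3.06, 3.12 and 8.09 FPKM in vehicle-treated mice 1 to 3 and 2.79, 2.70 and 3.63 FPKM in JAKi-treated mice 1 to 3. Vehicle-treated mouse 3 was thus 2.62 times the mean of the other vehicle-treated mice, and the remaining 5 mice were within a narrow band in which the groups overlapped. The log2 difference was -0.41 (standard error 0.31, adjusted p = 0.553 in limma; exact permutation test, 2-sided, p = 0.5). Without vehicle-treated mouse 3 it was -0.03. In that same mouse, the summed level of 8 osteoclast markers was 645 FPKM, against 178 FPKM at the lowest in the vehicle group and 124 to 129 FPKM in the JAKi group. Of the 7 of these markers that were tested, 6 were lower and 1 was higher with JAKi at an unadjusted p under 0.05. Over all tested genes these shares were 9.40% and 6.57%. The part of more mature cells in the RANK values was not tested, and in bulk RNA fewer cells of a type and less RNA per cell cannot be told apart.

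*Traf6*, the adaptor that couples RANK to NF-κB, was 7.93, 7.26 and 7.63 FPKM with vehicle and 6.86, 8.04 and 7.69 FPKM with JAKi. The groups overlapped fully, with a log2 difference of -0.01 (95% interval -0.32 to 0.29, adjusted p = 0.970 in limma). Vehicle-treated mouse 3, which had the raised RANK value, was in the middle of its group for *Traf6*. The log2 ratio of *Tnfrsf11a* to *Traf6* was above 0 in that mouse only (0.07) and between -1.29 and -0.91 in the other 5.

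*Csf1r*, the receptor for M-CSF and IL-34 and a defining gene of the monocyte lineage, was 412, 357 and 417 FPKM with vehicle and 355, 422 and 382 FPKM with JAKi. The highest and the lowest of the 6 values were both in the JAKi group. Its log2 difference was -0.03 (95% interval -0.26 to 0.19, adjusted p = 0.902 in limma). *Csf1r* overlaps *Hmgxb3* on the opposite strand, and the sources disagree on whether the library kept strand. The within-mouse ratio of *Tnfrsf11a* to *Csf1r* was taken, as were all within-mouse log2 ratios here, on FPKM + 1. It was 0.37 lower on the log2 scale with JAKi and overlapped between the groups (exact permutation test, 2-sided, p = 0.5, adjusted p = 0.6 over 6 ratios).

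Of the ligands of these receptors, M-CSF alone had a transcript at a level near that of RANK. *Tnfsf11* (RANKL) and *Tnfrsf11b* (its decoy receptor osteoprotegerin) were listed at 0 in all 6 mice. *Il34* was listed at 0 in 5 mice and at 0.014 FPKM in vehicle-treated mouse 3. *Csf1*, which encodes M-CSF, was 2.62, 2.61 and 4.01 FPKM with vehicle and 1.82, 2.93 and 1.96 FPKM with JAKi, a log2 difference of -0.33 (standard error 0.22, adjusted p = 0.506 in limma). A value of 0 in an FPKM table says only that a gene is listed at 0, since the reads behind it are not known.

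*Tyrobp* (DAP12) was 4409, 3939 and 4031 FPKM with vehicle and 4818, 4272 and 4393 FPKM with JAKi. The JAKi values were on the high side, although vehicle-treated mouse 1 was above JAKi-treated mice 2 and 3. The log2 difference was 0.12 (95% interval -0.09 to 0.34, adjusted p = 0.564 in limma). *Fcer1g* (FcRγ) was 3757, 2994 and 3251 FPKM with vehicle and 3597.5, 2954 and 3409 FPKM with JAKi. Here the groups overlapped fully, and the log2 difference was -0.0046 (95% interval -0.27 to 0.26, adjusted p = 0.990 in limma). FcRγ is also a subunit of the IgE receptor of basophils. The 5 mast cell and basophil markers summed to between 913 and 1446 FPKM with JAKi and between 671 and 1185.5 FPKM with vehicle, with none at 0, and their part in the *Fcer1g* level was not tested.

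*Syk*, the kinase that docks on phosphorylated ITAMs, was 36.2, 31.3 and 33.6 FPKM with vehicle and 36.7, 39.8 and 37.8 FPKM with JAKi. Every JAKi-treated mouse was above every vehicle-treated mouse, but by as little as 36.7 against 36.2. The log2 difference was 0.17 (95% interval -0.05 to 0.40, adjusted p = 0.441 in limma), and p was 0.1 in the exact 2-sided permutation test, which cannot go lower with 3 mice per group. *Plcg2*, the phospholipase downstream of SYK, was 75.7, 73.6 and 64.5 FPKM with vehicle and 67.3, 75.5 and 76.7 FPKM with JAKi. These values overlapped, with a log2 difference of 0.04 (95% interval -0.19 to 0.27, adjusted p = 0.889 in limma). The within-mouse ratio of *Syk* to *Plcg2* was 0.13 higher on the log2 scale with JAKi (exact permutation test, 2-sided, p = 0.2, adjusted p = 0.4 over 6 ratios).

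The spread between mice differed between these parts of the machinery. The SD within a group was between 4.17% and 11.7% of the mean for *Csf1r*, *Traf6*, *Tyrobp*, *Fcer1g*, *Syk* and *Plcg2*. It was 60.6% for *Tnfrsf11a*, 43.0% for *Trem2* and 27.3% for *Pirb* in the vehicle group, against 16.7%, 10.4% and 10.6% in the JAKi group. Vehicle-treated mouse 3 was the highest of its group for these 3 genes and *Csf1r*, that is for 4 of the 10 genes, and for 37.0% of all tested genes. Its level of *Ly6c2* (2751 FPKM) was the lowest of the 6 mice. The part of this mouse in each difference is given by the values without it.

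**Figure D2:**
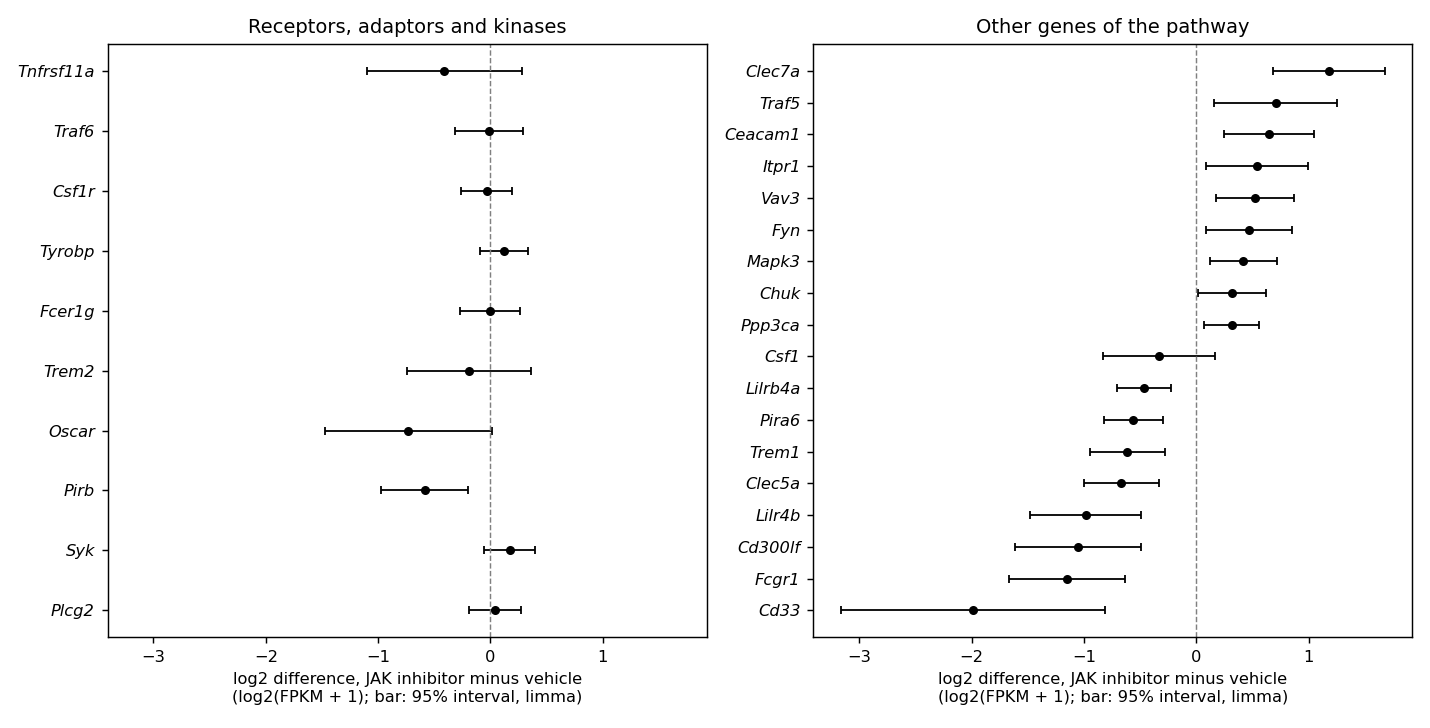
Log2 difference (JAKi minus vehicle, on log2(FPKM + 1)) with its 95% interval from limma for the 10 genes (left) and for the other pathway genes named by a fixed rule (right). On the left the interval leaves out 0 for *Pirb* alone (-0.98 to -0.20). The interval of *Oscar* is a description, since it passed the filter through 1 vehicle-treated mouse. On the right, those of *Csf1* alone cover 0, since the others were chosen for a small p.

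For 4 of the genes, the receptors *Tnfrsf11a*, *Trem2*, *Oscar* and *Pirb*, log2(FPKM + 1) spanned more than 1 over the 6 mice. Their upstream sequences are shown because these are the genes whose transcript level varied. Each is the 250 bases before the transcript start from RefSeq on GRCm38.p6, the assembly to which mm10 corresponds, written 5′ to 3′ in the direction of the gene. They lie at chr1:105780473-105780722 (plus strand) for *Tnfrsf11a*, chr17:48346151-48346400 (plus strand) for *Trem2*, chr7:3616158-3616407 (minus strand) for *Oscar* and chr7:3720383-3720632 (minus strand) for *Pirb*. Capitals mark matches on either strand to GAGGAA, a core bound by ETS family factors such as the myeloid factor PU.1.
Tnfrsf11a: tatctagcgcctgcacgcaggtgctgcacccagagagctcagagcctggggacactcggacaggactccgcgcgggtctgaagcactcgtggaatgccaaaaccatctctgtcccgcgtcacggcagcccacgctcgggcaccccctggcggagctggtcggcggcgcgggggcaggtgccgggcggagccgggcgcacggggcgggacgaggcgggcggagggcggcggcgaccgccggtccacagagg
Trem2: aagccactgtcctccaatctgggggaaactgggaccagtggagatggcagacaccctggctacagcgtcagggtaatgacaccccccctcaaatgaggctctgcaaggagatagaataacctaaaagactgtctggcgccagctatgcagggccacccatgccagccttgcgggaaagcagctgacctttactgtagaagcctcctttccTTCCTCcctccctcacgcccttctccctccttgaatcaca
Oscar: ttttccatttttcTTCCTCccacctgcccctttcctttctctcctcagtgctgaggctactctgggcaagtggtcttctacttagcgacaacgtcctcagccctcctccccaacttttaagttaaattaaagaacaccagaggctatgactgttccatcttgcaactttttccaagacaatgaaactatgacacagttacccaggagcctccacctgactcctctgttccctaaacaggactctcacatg
Pirb: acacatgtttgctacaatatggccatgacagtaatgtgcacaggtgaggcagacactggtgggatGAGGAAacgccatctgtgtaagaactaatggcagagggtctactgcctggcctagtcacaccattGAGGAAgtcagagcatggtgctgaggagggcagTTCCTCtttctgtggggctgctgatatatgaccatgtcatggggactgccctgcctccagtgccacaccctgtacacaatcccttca
The *Pirb* sequence held 3 such matches, which begin 185, 120 and 87 bases before the start. *Oscar* held 1 at 237 bases, *Trem2* held 1 at 40 bases, and *Tnfrsf11a* held none. The second motif searched was TTCNNNGAA, the palindrome bound by STAT factors, which are the targets of the JAK kinases. It does not overlap GAGGAA in these sequences, since it was found on neither strand in any of the 9 upstream sequences searched. These covered 8 of the 10 genes. *Csf1r* was left out of the search beforehand, and no sequence was found for *Tyrobp*. Of 32851 upstream sequences of the same length, 7.02% held TTCNNNGAA and 23.3% held GAGGAA, and 5 of the 9 held GAGGAA. A match is a description of these letters and not a site of binding.

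*Trem2*, a lipid-sensing receptor that uses DAP12, was 35.8, 41.3 and 76.3 FPKM with vehicle and 46.0, 37.5 and 43.9 FPKM with JAKi. Vehicle-treated mouse 3 was 1.98 times the mean of the other vehicle-treated mice, and the lowest of the 6 values was also in the vehicle group. The log2 difference was -0.19 (standard error 0.24, adjusted p = 0.750 in limma), and it was 0.13, in the opposite direction, without vehicle-treated mouse 3. Set against its adaptor within each mouse, the log2 ratio of *Trem2* to *Tyrobp* was -6.91, -6.54 and -5.71 with vehicle and -6.68, -6.79 and -6.61 with JAKi. These overlapped (exact permutation test, 2-sided, p = 0.6, adjusted p = 0.6 over 6 ratios).

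*Oscar*, a collagen receptor that uses FcRγ, was 1.65, 0.137 and 0.832 FPKM with vehicle. With JAKi it was 0.186 and 0.015 FPKM in mice 1 and 2 and listed at 0 in mouse 3. The values of vehicle-treated mice 1 and 3 were above the rest, and vehicle-treated mouse 2 was within the JAKi range. Because *Oscar* passed the filter only through vehicle-treated mouse 1, its difference is given as a description with no test. On the log2 scale it was -0.73 with a pseudocount of 1, which was above the *Oscar* value in 5 of the 6 mice, and -2.29 with a pseudocount of 0.1.

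*Pirb* encodes PIR-B, the inhibitory receptor of the set, on the minus strand of chr7:3711409-3720391 (GRCm38, GENCODE M21). Its level was 260.25, 234 and 384 FPKM with vehicle and 179.6, 179 and 214 FPKM with JAKi. All vehicle-treated mice were above all JAKi-treated mice, with a gap of 214 to 234 between the groups. The log2 difference was -0.59 (95% interval -0.98 to -0.20, adjusted p = 0.164 in limma; unadjusted p = 0.00792 in limma), and p was 0.1, again the floor, in the exact 2-sided permutation test. With each mouse left out in turn it ranged from -0.73 to -0.37, the latter without vehicle-treated mouse 3, a shift of over 1.5 times. The unadjusted p was under 0.05 in 14 of 14 alternatives, and the adjusted p ranged from 0.0759 to 0.372. Relative to *Fcer1g* in the same mouse, *Pirb* was 0.58 lower on the log2 scale with JAKi, again without overlap (exact permutation test, 2-sided, p = 0.1, adjusted p = 0.3 over 6 ratios). The 6 ratios include *Oscar* to *Fcer1g*, which is not read as a test. It also had p = 0.1 in the exact permutation test, and the adjusted p of *Pirb* depends on this tie.

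Markers of other myeloid cells differed in both directions. Over all tested genes, 9.40% were lower and 6.57% were higher with JAKi at an unadjusted p under 0.05. Of 12 tested neutrophil markers, 2 were lower and 4 were higher with JAKi at an unadjusted p under 0.05, and their sum was 18940 to 26236 FPKM with JAKi against 18663 to 24193 FPKM with vehicle. Of 15 monocyte and macrophage markers, 6 were lower and 0 were higher at an unadjusted p under 0.05, among them *C1qb* (163, 176 and 93.3 FPKM with vehicle and 61.8, 31.1 and 32.4 FPKM with JAKi), while their sum, which *Lyz2* dominated, overlapped between the groups (28907 to 38305 FPKM with vehicle and 29171 to 38662 FPKM with JAKi). The highest *C1qb* values were in vehicle-treated mice 1 and 2 and the highest *Pirb* value in mouse 3. Of the 8 B cell markers, 5 were under 1 FPKM in every mouse, and 3 of these (*Ms4a1*, *Ebf1* and *Pax5*) were at 0, while *Cd79b* was 26.7 to 35.4 FPKM. The part of these cells in the *Pirb* difference was not tested.

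**Figure D3:**
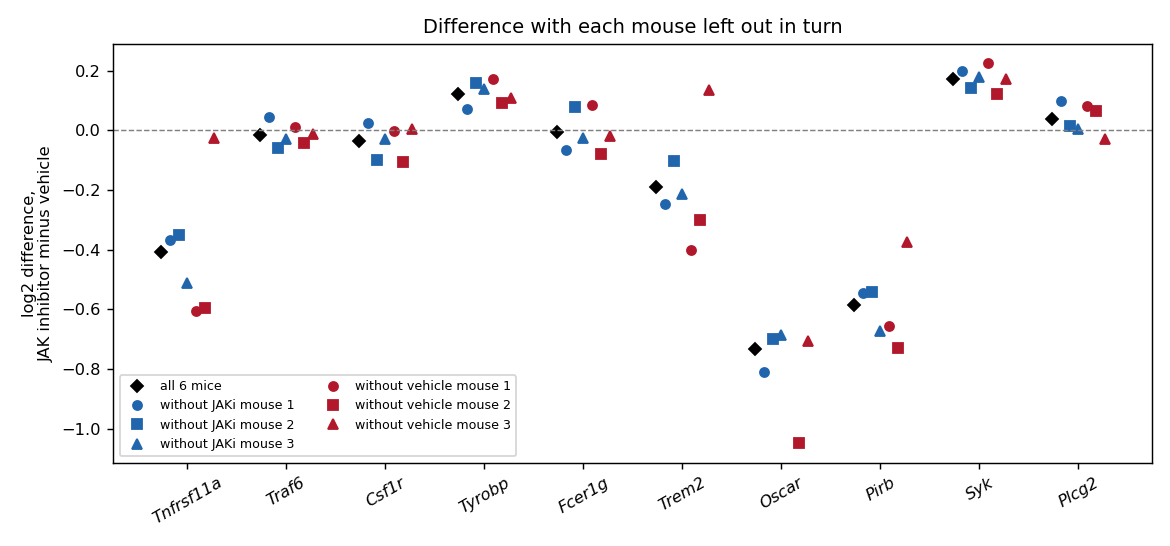
Log2 difference (JAKi minus vehicle, on log2(FPKM + 1)) with all 6 mice (black) and with each mouse left out in turn (blue for JAKi, red for vehicle). Without vehicle-treated mouse 3, *Tnfrsf11a* moves to -0.03 and *Trem2* to 0.13, whereas *Pirb* stays below 0 (-0.37). *Oscar* has no point without vehicle-treated mouse 1, since it then failed the filter.

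*Pirb* belongs to a cluster with the activating *Pira* genes, which use FcRγ and share much of their sequence with it, so reads could be split between them. *Pira6* was 48.6, 41.6 and 50.3 FPKM with vehicle and 28.8, 34.4 and 31.1 FPKM with JAKi, a log2 difference of -0.56 (standard error 0.11, adjusted p = 0.109 in limma). *Pira7* was 6.53, 3.62 and 8.66 FPKM with vehicle and 2.81, 2.46 and 2.07 FPKM with JAKi (log2 difference -1.02, adjusted p = 0.134 in limma). *Pira2* overlapped between the groups, with 28.6, 43.8 and 38.0 FPKM with vehicle and 27.1, 24.3 and 33.8 FPKM with JAKi. *Pira1* and *Pira4* were listed at 0 in every mouse. The summed level of *Pira2*, *Pira6*, *Pira7* and *Pira11* was 84.4, 89.4 and 97.0 FPKM with vehicle and 58.8, 61.2 and 66.9 FPKM with JAKi. All JAKi-treated mice had a lower sum than all vehicle-treated mice. The ratio of *Pirb* to this sum was 3.09, 2.62 and 3.96 with vehicle and 3.06, 2.92 and 3.20 with JAKi, and it overlapped.

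The receptors that feed into DAP12 and FcRγ were drawn from a list of ITAM-coupled receptors, of which 23 of 26 symbols were in the tables and 19 were tested. At an unadjusted p under 0.05, 7 of 19 were lower, against 9.40% of all tested genes, and 3 of 19 were higher, against 6.57%. None passed an adjusted p of 0.05. The median log2 difference of the list was -0.09. The lower ones included *Fcgr1*, the high-affinity IgG receptor, at 6.74, 6.60 and 12.2 FPKM with vehicle and 3.47, 3.21 and 2.73 FPKM with JAKi (log2 difference -1.15, adjusted p = 0.102 in limma). *Clec5a*, a C-type lectin that uses DAP12, was 50.8, 51.9 and 73.5 FPKM with vehicle and 33.2, 36.8 and 38.6 FPKM with JAKi (log2 difference -0.67, adjusted p = 0.109 in limma). *Trem1*, the inflammatory relative of *Trem2*, was 27.0, 21.4 and 31.5 FPKM with vehicle and 17.8, 15.7 and 17.2 FPKM with JAKi (log2 difference -0.61, adjusted p = 0.118 in limma). In each of these 3 genes all JAKi-treated mice were below all vehicle-treated mice, including mice 1 and 2 of the vehicle group. They were named for a small p, so this separation is no further result. Of the 19 tested genes of the list, 6 were separate and lower and 3 separate and higher. Over all tested genes these shares were 12.1% and 9.92%.

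Other receptors of the same list were higher. *Clec7a*, the β-glucan receptor dectin-1, which has an ITAM-like motif of its own and recruits SYK without an adaptor, was 41.5, 51.0 and 24.7 FPKM with vehicle and 82.7, 86.0 and 90.2 FPKM with JAKi. Its log2 difference was 1.18 (95% interval 0.68 to 1.68, adjusted p = 0.0886 in limma), the smallest adjusted p among the 99 tested pathway genes. Without vehicle-treated mouse 3, its lowest value, the difference was 0.89 (adjusted p = 0.00909 in limma), and without vehicle-treated mouse 2 it was 1.40 (adjusted p = 0.0257 in limma). In these fits 94 and 95 of all tested genes passed an adjusted p of 0.05, against 15 in the main fit. With any other mouse left out, the adjusted p of *Clec7a* was 0.106 to 0.2745 in limma. *Cd300lb*, which uses DAP12, was 46.7, 54.9 and 24.3 FPKM with vehicle and 69.9, 84.9 and 79.9 FPKM with JAKi (log2 difference 0.96, adjusted p = 0.143 in limma). *Sirpb1a*, also a DAP12 receptor, was 38.0, 27.7 and 22.4 FPKM with vehicle and 41.1, 38.5 and 46.3 FPKM with JAKi (log2 difference 0.53, adjusted p = 0.204 in limma). *Cd300lb*, *Sirpb1a*, *Pira7* and *Pira2* are named here with their values already in view, since the rule did not select them. *Trem3* and *Fcgr3* overlapped between the groups, with log2 differences of 0.01 and 0.04.

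Summed over receptors known to use each adaptor, the supply of receptor and adaptor transcripts was compared within each mouse as a description. Both sums were grouped from general knowledge after the values had been seen. The 10 DAP12-coupled receptors summed to 595, 535 and 522 FPKM with vehicle and 635, 525 and 580 FPKM with JAKi, and *Tyrobp* was 7.41, 7.36 and 7.72 times that sum with vehicle and 7.59, 8.13 and 7.57 times with JAKi. Both the sum and the ratio overlapped between the groups. The 10 FcRγ-coupled receptors summed to 927, 806 and 981 FPKM with vehicle and 816, 722 and 826 FPKM with JAKi. *Fcer1g* was 4.05, 3.71 and 3.32 times that sum with vehicle and 4.41, 4.09 and 4.13 times with JAKi. In this grouping every JAKi-treated mouse was above every vehicle-treated mouse, by as little as 4.09 against 4.05. The sum left out *Fcer1a* of the mast cell and basophil list. That gene was 84.0, 122 and 62.9 FPKM with vehicle and 119, 127 and 67.2 FPKM with JAKi. The separation depends on which receptors were summed.

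**Figure D4:**
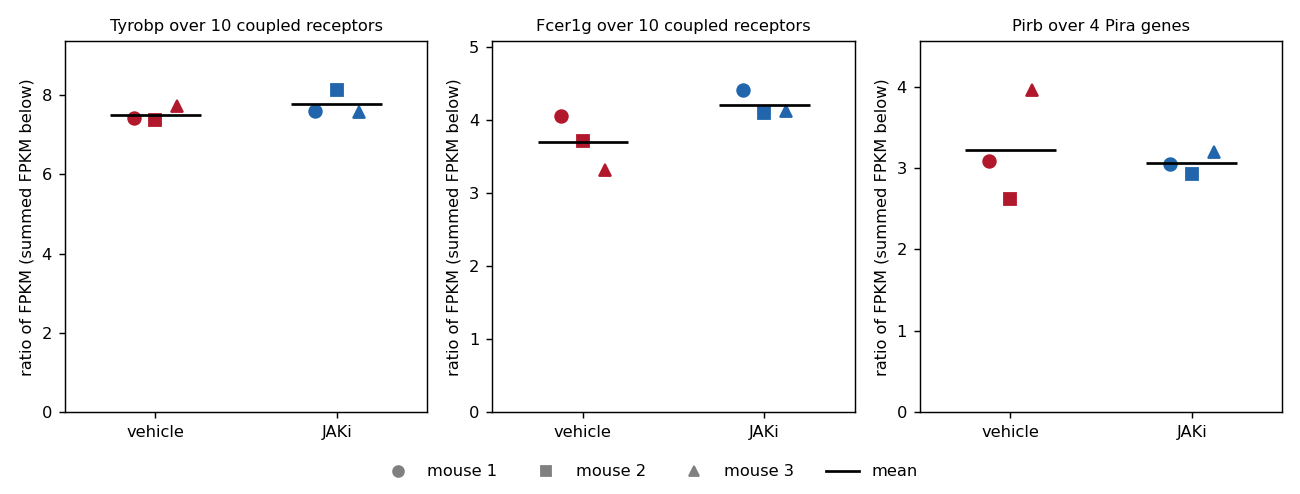
Ratio of FPKM within each mouse (symbols as mouse numbers, vehicle in red and JAKi in blue, bar for the mean) for *Tyrobp* and *Fcer1g* over the summed FPKM of 10 receptors each and for *Pirb* over the summed FPKM of 4 *Pira* genes. The groups overlap for *Tyrobp* and *Pirb*, and for *Fcer1g* the JAKi values (4.09 to 4.41) lie above those with vehicle (3.32 to 4.05). The separation for *Fcer1g* depends on the receptors summed, which left out *Fcer1a*.

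A list headed inhibitory receptors and phosphatases, the class to which *Pirb* belongs, had 24 tested genes. Whether each listed receptor carries an inhibitory motif was not checked here. At an unadjusted p under 0.05, 6 were lower, against 9.40% of all tested genes, and 4 were higher, against 6.57%. None passed an adjusted p of 0.05, and the median log2 difference was -0.15. *Lilrb4a*, an ITIM receptor of myeloid cells, was 209.9, 217 and 246 FPKM with vehicle and 159.9, 147 and 180.4 FPKM with JAKi (log2 difference -0.46, adjusted p = 0.110 in limma). *Lilr4b* was 41.3, 32.9 and 64.8 FPKM with vehicle and 20.1, 21.2 and 25.0 FPKM with JAKi (log2 difference -0.98, adjusted p = 0.109 in limma). *Cd300lf* had a log2 difference of -1.05 (adjusted p = 0.117 in limma). *Cd33*, a sialic acid receptor, had the largest difference of the list, -1.99 (adjusted p = 0.136 in limma), with 28.1, 27.6 and 128 FPKM with vehicle and 15.0, 7.78 and 11.3 FPKM with JAKi. Without vehicle-treated mouse 3 it was -1.27 (adjusted p = 0.0349 in limma). With any other mouse left out, the adjusted p of *Cd33* was 0.0811 to 0.346 in limma. On the other side, *Ceacam1* was 92.9, 77.9 and 53.3 FPKM with vehicle and 115.4, 107.9 and 121 FPKM with JAKi (log2 difference 0.65, adjusted p = 0.150 in limma). For all 5 genes the groups did not overlap, which follows largely from naming them for a small p. Of the 24 tested genes of this list, 5 were separate and lower and 3 separate and higher. Over all tested genes these shares were 12.1% and 9.92%. The phosphatases that ITIMs recruit were measured close to their vehicle level. *Ptpn6* (SHP-1) had a log2 difference of -0.15, *Ptpn11* (SHP-2) of 0.02 and *Inpp5d* (SHIP-1) of -0.15.

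Below the receptors, no listed gene was lower at an unadjusted p under 0.05, against 9.40% of all tested genes. In each list the share that was higher was above the 6.57% of all tested genes, though none had an adjusted p under 0.05. Of 17 tested genes of RANK proximal signaling, 0 were lower and 2 were higher at an unadjusted p under 0.05. These were *Traf5*, a TRAF that binds RANK (4.52, 4.23 and 2.65 FPKM with vehicle and 8.07, 8.01 and 4.60 FPKM with JAKi; log2 difference 0.71, adjusted p = 0.211 in limma), and *Chuk*, the kinase IKKα (log2 difference 0.32, adjusted p = 0.293 in limma). Of 12 tested genes of CSF1R signaling, 0 were lower and 2 were higher, *Mapk3* (ERK1, log2 difference 0.42, adjusted p = 0.184 in limma) and *Fyn* (log2 difference 0.47, adjusted p = 0.225 in limma). Of 26 tested genes of SYK and PLCγ signaling, 0 were lower and 3 were higher. These were *Vav3*, an exchange factor for Rac (14.1, 14.1 and 10.1 FPKM with vehicle and 16.9, 19.8 and 19.2 FPKM with JAKi; log2 difference 0.52, adjusted p = 0.161 in limma), *Ppp3ca*, the catalytic subunit of calcineurin (log2 difference 0.32, adjusted p = 0.208 in limma), and *Itpr1*, a calcium channel of the endoplasmic reticulum (log2 difference 0.54, adjusted p = 0.238 in limma).

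*Lyn* and *Fgr*, Src family kinases that phosphorylate ITAMs in myeloid cells, were above *Syk* in level in every mouse. *Lyn* was 141 to 156 FPKM with vehicle and 142 to 153 FPKM with JAKi, with a log2 difference of -0.0019, and *Fgr* had a log2 difference of -0.19. *Lcp2* (SLP-76), the scaffold between SYK and PLCγ2, had a log2 difference of 0.13. *Src* itself, the kinase of resorbing osteoclasts, reached 1.17 FPKM in vehicle-treated mouse 3 and was at or under 0.214 FPKM in the other 5 mice. *Plcg1*, the relative of *Plcg2*, was between 1.11 and 2.87 FPKM, far under the 64.5 to 76.7 FPKM of *Plcg2*.

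Over all lists, 13 of 99 tested pathway genes (13.1%) were lower and 14 (14.1%) were higher at an unadjusted p under 0.05, against 9.40% and 6.57% of all tested genes. None had an adjusted p under 0.05, and the median log2 difference was -0.05. The lists hold genes with results already known and were not tested as sets.

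For each of the 4 genes whose log2 values spanned more than 1, the genes most like it over the 6 mice were sought among those with a mean FPKM of at least 5, by the root mean square difference between the centered log2(FPKM + 1) values. The genes nearest to *Pirb* were *Adam9* (0.05), *Sdhaf1* (0.07) and *Baiap2* (0.07). *Adam9* was 24.3, 23.1 and 37.3 FPKM with vehicle and 17.9, 16.5 and 21.9 FPKM with JAKi. Nearest to *Tnfrsf11a* were *2310039H08Rik* (0.11), *Lpxn* (0.11) and *Wipi1* (0.12). *Lpxn*, which encodes the adhesion adaptor leupaxin, was 51.5, 51.9 and 99.5 FPKM with vehicle and 44.1, 43.1 and 46.7 FPKM with JAKi, and it too was highest in vehicle-treated mouse 3. Nearest to *Trem2* were *Wdfy1* (0.11), *Adat3* (0.13) and *Gpr137b* (0.13). Nearest to *Oscar* were *Gbp2* (0.17), *Ppap2a* (0.23) and *Fkbp5* (0.23). *Gbp2* was 11.3, 6.17 and 8.89 FPKM with vehicle and 4.24, 4.26 and 4.67 FPKM with JAKi.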

How the data were processed

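Each of the 6 libraries came with an FPKM value per gene symbol. Per the labels, the authors made these FPKM values, which are scaled to transcript length and library size, with TopHat2 2.0.13, Bowtie2 2.2.3, SAMtools 0.1.19 and Cufflinks 2.2.1 on mm10; the annotation is not given in the sources used here. The methods name a stranded mRNA kit and the labels a SMART-Seq HT kit with Nextera libraries. FPKM hold no read counts, so depth is unknown and no counting intervals were computed. FPKM sums were 688372 to 775790, and the most frequent ratio of low values between libraries, a rough measure of relative depth, was within -0.10 to 0.24 (log2) over 15 pairs.

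Genes reaching FPKM 1 in at least 1 mouse were tested on log2(FPKM + 1) with limma 3.58.1 in R 4.3.3, with an intensity trend and Benjamini-Hochberg adjustment over all tested genes. Within-mouse log2 ratios were compared by an exact 2-sided permutation test, with adjustment over the 6 ratios. Ratios to summed receptors or summed *Pira* genes were taken on FPKM and not tested. Tested on simulated data with 200 genes changed by 1.5 (log2), limma recovered 92.5%, and 6.09% of its calls were false. The changed genes were drawn from those above a set mean level. Each of the 10 genes had a smaller difference in the main fit, and recovery at such sizes was not tested. The members and gene lists were chosen with earlier results of these data known. Genes named were the 10 members, the ligands, up to 5 genes of each pathway list with the smallest unadjusted p under 0.05, marker genes at the top of their list or at 0, and the 3 genes most like each member spanning more than 1 (log2); other genes, and the grouping of receptors by adaptor, were chosen with their values in view. Same-numbered mice did not deviate together (correlations 0.0158, 0.0542 and -0.000164), so numbers were not used as pairs. Alternatives covered the pseudocount, filter, scaling, trend, array weights, a replicate block and leaving out each mouse. Promoter sequences were from RefSeq and gene positions from GENCODE.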

Additional observations from a re-analysis of the deposited data

How the results depend on the processing

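For the 10 genes and the named pathway genes 14 alternatives were tried, fewer for *Oscar*, which failed the filter with FPKM of at least 1 in 3 mice and without vehicle replicate 1. The number of genes with an adjusted p under 0.05 in limma was 15, and it was 2 with no filter, 34 with FPKM of at least 1 in 3 mice, 2 without a trend, 63 with array weights, 67 with a replicate block, and 3 to 95 with each mouse left out. It was 94 without vehicle-treated mouse 3, 95 without vehicle-treated mouse 2, and 5, 6 and 3 without JAKi-treated mice 1, 2 and 3. The cause was not tested. Of the 10 genes, 1 (*Pirb*) had an unadjusted p under 0.05 in limma. The count was 2 without a trend, with array weights and with the replicate block, and 1 to 2 with each mouse left out. The added gene was *Oscar* each time. It passed the filter only through vehicle-treated mouse 1 in the main fit, so its p is not read as a test. With the block the adjusted p of *Pirb* was 0.0759, and the number of pathway genes was 31 against 27.

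Small differences turned direction. *Csf1r* was 0.048 with quantile normalization and -0.11 to 0.025 with each mouse left out. *Fcer1g* was 0.0024 with scaling by the median ratio and -0.079 to 0.085 with each mouse left out. *Trem2* was 0.0079 with array weights and -0.40 to 0.13 with each mouse left out, and its ratio to *Tyrobp* was -0.57 to 0.028. With each mouse left out, *Traf6* was -0.058 to 0.043 and *Plcg2* was -0.030 to 0.097. *Tyrobp*, *Syk*, *Tnfrsf11a*, *Oscar* and *Pirb* kept their direction in every alternative run, *Tnfrsf11a* between -0.61 and -0.03. Of 390 gene values over alternatives, 373 kept direction and side of the threshold, 11 turned direction, all of them given above, and 6 crossed the threshold of adjusted p (*Clec7a*, *Cd300lf*, *Cd33* and *Lilr4b*). Unknown depth limits what can be said of *Oscar*, and 3 mice per group limit the rest.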

Other observations

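Markers of further cell types were summed in each mouse, as values that belong to no comparison above. The 5 NK cell markers, mostly *Nkg7*, summed to 489.5 to 569.6 FPKM with JAKi and 203 to 372 FPKM with vehicle, and the 7 dendritic cell markers to 273 to 299.8 FPKM with JAKi and 149 to 255 FPKM with vehicle. *Irf8*, which monocytes also express, made up most of the latter sum (236.5 to 264 FPKM with JAKi and 112 to 205 FPKM with vehicle), and the other 4 tested dendritic cell markers, *Flt3*, *Zbtb46*, *Siglech* and *Itgax*, had log2 differences between -0.45 and -0.05. Of the NK cell markers, *Nkg7* had a log2 difference of 0.92, while *Gzma*, *Ncr1* and *Klrb1c* had log2 differences of -2.09, -0.55 and -0.23. The T cell markers summed to 3.25 to 7.26 FPKM with JAKi and 3.76 to 5.66 FPKM with vehicle, the B cell markers to 31.0 to 39.3 and 28.8 to 34.8 FPKM, and the stromal and bone markers to 6.12 to 6.57 and 3.54 to 7.51 FPKM. The erythroid markers summed to 6.09 to 47.6 FPKM with JAKi and 0.69 to 2.77 FPKM with vehicle. Vehicle-treated mouse 3 had the lowest sum of the 6 mice for 7 of the 10 lists: monocyte and macrophage, B cell, NK cell, dendritic cell, mast cell and basophil, erythroid, and stromal and bone markers.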
